A study of Mus musculus with 16 samples.

Results

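Rhox2a, Rhox5, Rhox6 and Rhox9 were 4 of the 42 genes of the mouse reproductive homeobox (Rhox) cluster in a table of 55291 genes. They were picked from it by symbol, with earlier results of these data known, as were the gene lists below. The 4 genes were followed in 16 libraries of total RNA from E14Tg2a, a mouse embryonic stem cell line of strain 129/Ola grown without feeder cells. All cells carried an auxin-inducible degron on its endogenous CTCF, the zinc finger factor found at the anchors of chromatin loops, and a doxycycline-inducible CTCF transgene in its place. The transgene encoded R342C, K365T or Q418R mutant CTCF, or wild-type CTCF (WT), so that the WT cells had lost their own CTCF too. Indole-3-acetic acid at 500 µM, which sets off the degradation, was given to all of them, with 1 µg/ml doxycycline, for which the labels give 2 days. Each of the 4 lines was sampled after 3 days without leukemia inhibitory factor (LIF), the kinase inhibitor CHIR99021 and the MEK inhibitor PD0325901 (called no LIF here) and in serum medium with LIF, 3 µM CHIR99021 and 1 µM PD0325901 (called LIF here). Removal of LIF stands below for the change between these media, in which LIF and both inhibitors were removed together and cannot be told apart. There were 2 libraries for each of the 8 combinations. Each genotype was 1 line, so that genotype and line cannot be told apart, and nothing in the labels says that the libraries of a group came from separate cultures, so that p-values measure the spread between these libraries, which may be technical.

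Rhox genes encode homeodomain transcription factors that lie side by side on the X chromosome and are known for their expression in testis, ovary, epididymis and placenta. Rhox5, also called Pem, was the first of them to be described and is the one best known in embryonic stem cells and in Sertoli cells. Rhox6 and Rhox9, also called Psx1 and Psx2, were first described in placenta, and Rhox2a belongs to a set of tandem copies. DNA methylation is known to silence several genes of the cluster in embryonic and somatic cells. LIF and the inhibitors hold embryonic stem cells in the naive pluripotent state, and their removal lets the cells leave it.

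In mm10, with positions from GENCODE M21, all 42 genes lay between chrX:37213804-38306028. Rhox2a was at chrX:37244976-37249686 on the plus strand, Rhox5 at chrX:37804842-37808876 and Rhox6 at chrX:37826910-37829857 on the plus strand, and Rhox9 at chrX:37899097-37901770 on the minus strand. No other annotated gene overlapped any of the 4. Rhox2a is in part repeated in its copies: 66.4% of the 100-base windows of its transcripts also occurred in transcripts of Rhox2b to Rhox2h. Reads of the copies could thus have been split or dropped by the authors' counting, and the values of Rhox2a are uncertain as those of a single gene. Of the windows of Rhox6 6.81%, and of Rhox9 2.45%, were shared between this pair, and those of Rhox5 were its own.

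The 300 bases around the annotated RefSeq start (250 before it and 50 after it, GRCm38.p6, 5′ to 3′ on the gene's strand) are shown for Rhox5, which gave the largest response to the medium, and for Rhox2a and Rhox1, which were high in the same 2 mutant lines in LIF. Capitals mark CpG dinucleotides, the sites at which mammalian DNA is methylated. The windows are chrX:37754358-37754657 on the plus strand for Rhox5, chrX:37244742-37245041 on the plus strand for Rhox2a and chrX:37222209-37222508 on the minus strand for Rhox1.
Rhox5: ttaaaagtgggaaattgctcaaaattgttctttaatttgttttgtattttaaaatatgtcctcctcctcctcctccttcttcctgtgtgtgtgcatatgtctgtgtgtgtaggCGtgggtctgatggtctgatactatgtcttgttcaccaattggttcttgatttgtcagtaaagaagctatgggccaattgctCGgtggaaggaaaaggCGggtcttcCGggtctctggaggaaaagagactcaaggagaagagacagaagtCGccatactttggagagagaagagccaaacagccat
Rhox2a: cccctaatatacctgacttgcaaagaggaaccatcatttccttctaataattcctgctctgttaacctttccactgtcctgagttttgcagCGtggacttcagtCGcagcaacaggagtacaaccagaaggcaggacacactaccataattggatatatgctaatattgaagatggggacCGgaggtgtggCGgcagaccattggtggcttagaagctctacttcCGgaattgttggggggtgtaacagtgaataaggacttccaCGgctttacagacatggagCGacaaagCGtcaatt
Rhox1: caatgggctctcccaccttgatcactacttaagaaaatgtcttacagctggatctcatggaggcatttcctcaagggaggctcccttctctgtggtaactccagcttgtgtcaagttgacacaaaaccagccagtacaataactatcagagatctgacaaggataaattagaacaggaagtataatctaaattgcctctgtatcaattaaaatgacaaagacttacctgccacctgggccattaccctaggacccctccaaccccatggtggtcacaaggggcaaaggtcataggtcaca
The RefSeq start of Rhox5 lies 50.2 kb upstream of the start in GENCODE M21, and the files do not show which start these cells used. The Rhox5 window held 5 CpGs, the Rhox2a window 8 and the Rhox1 window 0, where the median over 32851 promoters of the same length was 7 and 5.43% held none. Of 281 overlapping 20-base windows of the Rhox2a promoter, 92.2% were found in the promoter of Rhox2b and 92.9% in those of Rhox2c and Rhox2e. The share was 37.4% for Rhox2d, 39.1% for Rhox2g and 39.5% for Rhox2h. Motifs were searched by their letters on both strands. TCCCGC, the core of the E2F6 motif, was in none of the 3 windows, and 20% of all promoters held it. CACGTG, the E-box, was likewise in none of the 3, against 7.15% of promoters, and CCCTC, the core of the CTCF motif, was in the Rhox1 window alone of the 3, against 66% of promoters. TCCCGC and CACGTG each contain a CpG, and a missing match says only that these letters are not in the window.

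The deposited normalised counts gave back 19721363 to 31935381 reads per library. Genes of snRNA, snoRNA and other structural RNA took 6.88% of the normalised counts of WT no LIF replicate 2, against 2.28% to 5.06% in the other 15 libraries, and results that rest on that library are also given without it. Ctcf averaged between 5767 and 7872 normalised counts in the 8 groups and passed none of 19 comparisons with limma (1 at an unadjusted p under 0.05), and its reads separate neither the transgene from the endogenous gene nor 1 mutation from another. The defining markers of the cells went with the labels: all 8 naive pluripotency markers fell without LIF in each of the 4 lines, with a summed level of 251 to 670.5 TPM, a level scaled for gene length and depth, in the 8 no LIF libraries and 2960.4 to 4579 TPM in the 8 LIF libraries. All 6 formative and primed markers rose in each line. The naive sum of 670.5 TPM was that of K365T no LIF replicate 1, against 357 TPM in replicate 2. The formative and primed sum was 462 and 921 TPM in these K365T libraries, and without LIF it was lowest in WT replicate 2 (378 TPM).

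Of the 42 Rhox genes 6 reached a mean of at least 10 normalised counts and were tested, namely the 4 members, Rhox1 and Rhox13. Rhox2a passed this filter, with a mean of 10.3, only through the K365T and Q418R libraries in LIF, and averaged 2.58 in the other 12, so that its calls in those groups were in part built into the filter. Another 25 genes had reads but lay below it, with means of 0.0691 to 7.05, and 11 had 0 reads in all 16 libraries. Per length, Rhox5 was the most abundant of the 6, with group means between 13.5 and 179 TPM, against 0.119 to 6.23 TPM for Rhox2a, 2.58 to 11.0 TPM for Rhox6 and 0.686 to 2.46 TPM for Rhox9. The 42 genes together had 208 and 201 TPM in R342C, 50.2 and 71.4 TPM in K365T, 101 and 52.0 TPM in Q418R and 94.6 and 103 TPM in WT without LIF. In LIF the sums were 29.2 and 35.7 TPM in R342C, 66.2 and 84.9 TPM in K365T, 69.0 and 47.1 TPM in Q418R and 17.4 and 29.5 TPM in WT. The summed level was thus above WT in K365T and Q418R in LIF and in R342C without LIF, and below WT in K365T without LIF. The libraries did not overlap in these 4 cases. Without LIF most of the sum was Rhox5, with 183 and 174 TPM in R342C, 34.0 and 50.8 TPM in K365T and 79.6 and 92.2 TPM in WT.

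**Figure D1:**
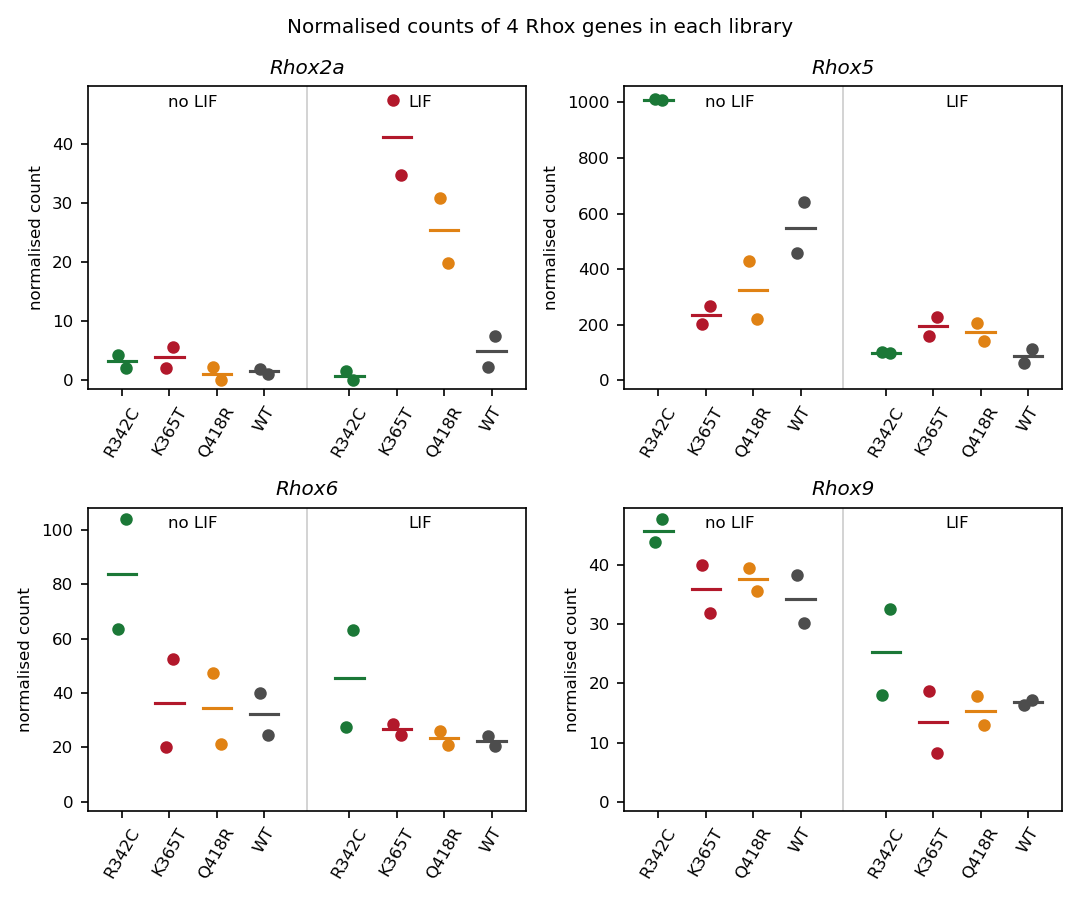
Normalised counts of Rhox2a, Rhox5, Rhox6 and Rhox9 in each library (points) with the mean of the 2 libraries (line), by line and medium, no LIF to the left of LIF. Rhox5 is at 1007 and 1012 in the R342C no LIF libraries and at 61 to 228 in all LIF libraries, whereas Rhox2a exceeds 19 only in K365T and Q418R in LIF.

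Log2 of the normalised count plus 4 was compared with limma over 17757 genes, with Benjamini-Hochberg adjustment over all of them and a threshold of 0.05, and a log2 difference ± its standard error (SE) is on that scale throughout. The response to the medium (no LIF against LIF) passed for 1 of the 4 genes in R342C, where 47.2% of all genes tested passed, and for 2 in K365T (44.7% of all genes), 2 in Q418R (46.5%) and 1 in WT (48.8%). Against WT in LIF, 0 of the 4 passed in R342C (0.417% of all genes), 2 in K365T (11.1%) and 1 in Q418R (4.25%). Rhox2a is among those called in K365T and Q418R in LIF, and in the response of both lines. In Q418R against WT it was the only one. Its calls were in part built into the filter, as given above, and so were these counts. Against WT without LIF, 0 passed in R342C (0.479%), 1 in K365T (14.7%) and 0 in Q418R (6.15%). Where 0 passed with limma, 0 passed with edgeR and DESeq2 as well. DESeq2 gave no adjusted p there for Rhox2a, nor for Rhox9 in R342C in LIF. The unadjusted limma p was under 0.05 for Rhox5 and Rhox6 in R342C without LIF, for Rhox5 in Q418R without LIF, and for 0 of the 4 in R342C in LIF. The difference between the response of a mutant line and that of WT passed for 0 of the 4 in R342C (0% of all genes), 1 in K365T (0.659%) and 0 in Q418R (0.141%), with 0 of the 4 at an unadjusted p under 0.05 in R342C and 2 in Q418R. By edgeR it passed for 0 in R342C and Q418R, and by DESeq2 for 0 in R342C and 1 in Q418R, where DESeq2 gave Rhox2a no adjusted p. For the response, the members' share is thus read against a change in nearly every second gene. The comparisons with WT share the WT libraries of a medium.

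Rhox5 rose when LIF was removed from the R342C and WT lines, by more than any other Rhox gene tested, and was 1.21 times as high without LIF as in LIF in K365T. It had 1012 and 1007 normalised counts in R342C without LIF, against 101 and 97.7 in LIF. K365T had 204 and 267 without LIF, against 160 and 228 in LIF. In Q418R it had 429.8 and 220.0 without LIF, against 205 and 141 in LIF. WT had 457 and 643 without LIF, against 60.7 and 115 in LIF. The libraries of the 2 media overlapped in K365T and in no other line, and the lowest R342C no LIF library lay above every library of the other 3 lines. The ratio of the means was 10.1 in R342C, 1.21 in K365T, 1.88 in Q418R and 6.27 in WT. The log2 difference was 3.29 ± 0.34 in R342C (limma, adjusted p = 1.97e-06) and 2.64 ± 0.34 in WT (1.59e-05), or 2.39 without WT no LIF replicate 2 (adjusted p = 0.000381). In K365T the log2 difference of 0.28 ± 0.34 did not pass (adjusted p = 0.533), with a 95% interval of -0.44 to 1.01, which leaves out the sizes seen in R342C and WT. Q418R lay between, at 0.84 ± 0.34 (adjusted p = 0.0545, 95% interval 0.12 to 1.56). The Q418R response passed with edgeR (adjusted p = 0.0408), DESeq2 (0.0177), TPM (0.0274) and upper-quartile scaling (0.0397), and without Q418R no LIF replicate 2 (0.0118), out of a range of 0.0118 to 0.464 over all its alternatives.

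**Figure D2:**
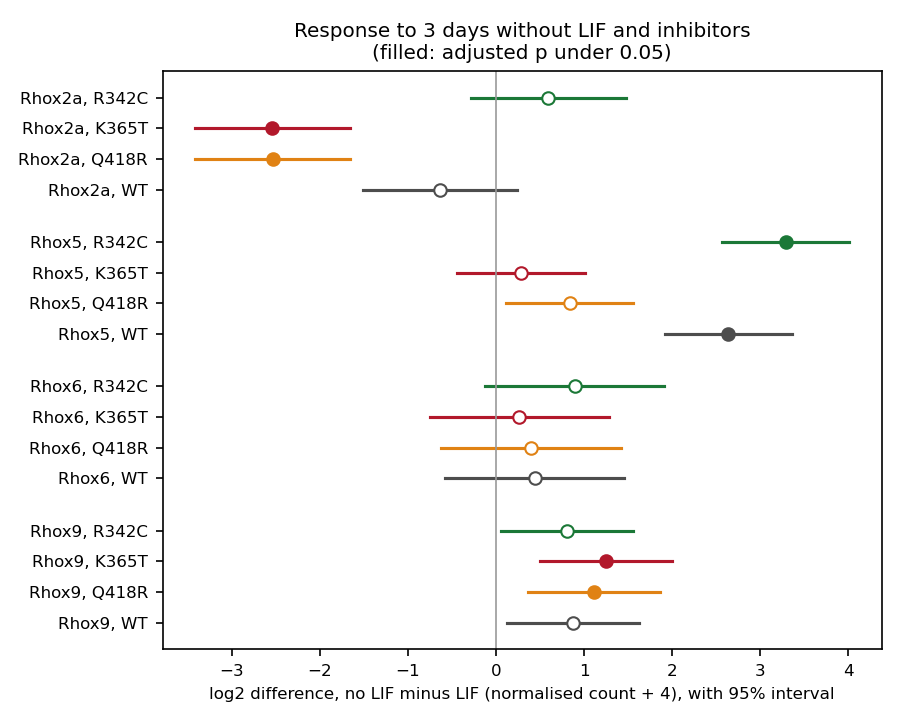
Log2 difference between no LIF and LIF for each gene and line, on the normalised count plus 4, with the 95% interval from limma. Filled points passed at an adjusted p under 0.05. Rhox5 is at 3.29 in R342C and 2.64 in WT and at 0.28 in K365T, Rhox2a is at -2.54 in both K365T and Q418R, and the intervals of Rhox6 include 0 in all 4 lines.

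Rhox5 in K365T lay above WT in LIF and below WT without LIF. In LIF its level was higher in K365T than in WT (log2 difference 1.16 ± 0.34, limma, adjusted p = 0.0407), and without LIF it was lower (-1.20 ± 0.34, adjusted p = 0.029). The difference in response was -2.36 ± 0.48 (limma, adjusted p = 0.0385). In Q418R the differences from WT had the same signs but did not pass: 0.99 ± 0.34 in LIF (adjusted p = 0.127), -0.81 ± 0.34 without LIF (0.169) and -1.80 ± 0.48 for the response (0.21), the last of which passed with DESeq2 alone (0.0382). R342C differed from WT by 0.24 ± 0.34 in LIF (adjusted p = 1) and 0.89 ± 0.34 without LIF (adjusted p = 0.706, 95% interval 0.17 to 1.61). Both R342C libraries without LIF were above both WT libraries there, and those in LIF overlapped with WT. Between mutant lines without LIF, Rhox5 was lower in K365T than in R342C (-2.09 ± 0.34, adjusted p = 0.0026) and lower in Q418R than in R342C (-1.70 ± 0.34, adjusted p = 0.0192). K365T and Q418R differed by -0.39 ± 0.34 (adjusted p = 0.596, 95% interval -1.11 to 0.33) and their libraries overlapped.

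The differences of Rhox5 between K365T and WT did not hold in each alternative. The K365T difference in LIF was lost without K365T replicate 1 (adjusted p = 0.0635) or 2 (0.256) or WT replicate 1 (0.326), and the difference without LIF was lost without K365T replicate 1 (0.108) or 2 (0.0566) or WT replicate 2 (0.204), the library rich in structural RNA, with TPM (0.0649) and with the libraries of the 2 groups alone in the fit (0.0803). The difference in response kept its call in 11 of 20 alternatives, over an adjusted p of 0.000284 to 0.158 and a log2 difference of -2.79 to -1.92. It was lost without K365T no LIF replicate 1 (adjusted p = 0.0588), K365T LIF replicate 1 (0.0571) or 2 (0.153), WT LIF replicate 1 (0.151) or WT no LIF replicate 2 (0.142). It was also lost with TPM (0.0737), with values centred on X-linked genes (0.052) and with the libraries of K365T and WT alone in the fit (0.158). Q418R against R342C without LIF was lost without R342C replicate 1 (0.0988) or 2 (0.125) or Q418R replicate 2 (0.155) and with these 2 groups alone (0.15), whereas K365T against R342C passed in every alternative (adjusted p = 8.25e-08 to 0.042).

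Rhox2a showed a different order of the groups: it was highest in LIF in the K365T and Q418R lines. Without LIF it had 4.30 and 2.12 normalised counts in R342C, 2.11 and 5.70 in K365T, 2.20 and 0 in Q418R and 1.91 and 1.12 in WT. In LIF it had 1.57 and 0 normalised counts in R342C, 47.5 and 34.9 in K365T, 31.0 and 19.9 in Q418R and 2.34 and 7.56 in WT. The 4 libraries of K365T and Q418R in LIF thus lay above the other 12, which reached 7.56 at most. With all genes of a mean of at least 1 in the test, a filter that Rhox2a passed without those 4 libraries, its calls held: the adjusted p was 0.00189 for K365T and 0.0256 for Q418R against WT in LIF, 0.000268 and 0.0028 for the same lines against R342C in LIF, and 9.04e-05 in K365T and 8.2e-05 in Q418R for the response. The values rest on few reads, 77 over the 2 K365T libraries and 46 over the 2 Q418R libraries in LIF, and on 10 at most in any other group. Against WT in LIF the log2 difference was 2.39 ± 0.41 in K365T (limma, adjusted p = 0.00255), 1.76 ± 0.41 in Q418R (0.0275) and -0.86 ± 0.41 in R342C (0.91). The ratio of the means was 8.33 in K365T and 5.14 in Q418R. Removal of LIF lowered Rhox2a by 10.6-fold in K365T (log2 difference -2.54 ± 0.41, adjusted p = 0.000151). In Q418R 2 reads were left without LIF against 46 in LIF, a level 23.6 times lower (95% exact interval 6.17 to 201, counting error only; limma adjusted p = 0.000139). In WT the difference of -0.64 ± 0.41 (adjusted p = 0.216) and in R342C that of 0.59 ± 0.41 (0.254) did not pass.

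The difference of the Rhox2a response from that of WT did not pass in K365T (-1.90 ± 0.58, adjusted p = 0.17) or in Q418R (-1.90 ± 0.58, 0.307), so that the fall in these lines was not shown to differ from WT at this depth. R342C had 2 reads in LIF. K365T was 48.1 times above it (95% exact interval 12.9 to 404; limma adjusted p = 0.000546) and Q418R 29.3 times (7.65 to 249; adjusted p = 0.00474). K365T and Q418R differed in LIF by 0.63 ± 0.41 (adjusted p = 0.42, 95% interval -0.25 to 1.51). The K365T difference from WT passed in each alternative that gave it an adjusted p (0.000727 to 0.0387), which DESeq2 did not for Rhox2a in the comparisons between lines. The Q418R difference from WT did not pass with edgeR (adjusted p = 0.0589), with TPM (0.148), with a pseudocount of 1 (0.0973), or without Q418R LIF replicate 1 (0.237) or 2 (0.0693) or WT LIF replicate 1 (0.248). Q418R against R342C was lost without R342C LIF replicate 2 (0.0903) or Q418R LIF replicate 1 (0.0684).

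The sum of the 7 copies of Rhox2a was also highest in the 4 libraries of K365T and Q418R in LIF. Reads of Rhox2a could have been counted in the copies, so that the sum is not independent of it. Without Rhox2a itself, the sum in LIF was 4.72 and 0.931 normalised counts in R342C, 42.0 and 32.8 in K365T, 15.5 and 21.9 in Q418R and 1.56 and 4.32 in WT, and without LIF it reached 8.49 at most, in R342C. Single copies had few reads and need not follow the sum, as Rhox2f had 0 reads in both Q418R libraries in LIF. Summed over all 8 Rhox2 genes, no library exceeded a normalised count of 11.2 without LIF. In LIF the sum was 6.29 and 0.931 in R342C, 89.5 and 67.7 in K365T, 46.5 and 41.8 in Q418R and 3.89 and 11.9 in WT. However reads were divided among the copies, the sum therefore separated the same 4 libraries from the other 12. Rhox1, the first gene of the cluster, encodes a homeodomain protein and shares no transcript window with another gene. In LIF it had 24.4 and 31.6 normalised counts in R342C, 87.3 and 112 in K365T, 78.6 and 46.8 in Q418R and 11.7 and 33.5 in WT. It rose in K365T against WT (log2 difference 2.08 ± 0.48, limma, adjusted p = 0.0139) and had a difference of 1.42 ± 0.48 in Q418R (0.129). Removal of LIF lowered it in K365T (-2.30 ± 0.48, adjusted p = 0.00135) and Q418R (-1.67 ± 0.48, 0.0109), whereas R342C (-0.45 ± 0.48, 0.479) and WT (-0.56 ± 0.48, 0.367) did not pass. Over the 16 libraries the log2 levels of Rhox1 and Rhox2a had a Pearson r of 0.86, and of 0.79 with the mean of each medium taken off. Rhox13, known from male germ cells, had 31.0 and 21.6 normalised counts in K365T, 39.3 and 23.9 in Q418R and 9.35 and 10.8 in WT in LIF, and did not pass against WT in either medium (limma, lowest adjusted p = 0.076, in K365T without LIF), and 6 of its 12 comparisons between lines had an unadjusted p under 0.05.

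Most of the genes below the filter had reads in the K365T line in LIF, among them the 7 Rhox2 copies described above. These copies had 38 and 32 reads in the K365T libraries in LIF and 13 and 22 in Q418R. Rhox10 had another 15 and 25 in K365T. The counts that follow thus repeat the result for the copies in part, and no share over other low genes stands beside them. Without LIF, 13 of the 25 genes had at least 1 read in R342C (55 reads in all), 13 in K365T (39 reads), 12 in Q418R (31 reads) and 8 in WT (28 reads). In LIF, 13 had at least 1 read in R342C (33 reads in all), 23 in K365T (159 reads), 17 in Q418R (96 reads) and 10 in WT (22 reads). The 8 Rhox4 copies had 8 and 15 reads in the K365T libraries in LIF, 5 and 7 in Q418R, 0 and 1 in R342C and 0 and 2 in WT. Rhox10 had the most reads of the 25, with 7.38 and 7.98 normalised counts in K365T, 8.79 and 1.02 in Q418R, 0.861 and 0 in R342C and 0 and 0 in WT without LIF. In LIF it had 16.6 and 25.7 in K365T, 21.4 and 5.97 in Q418R, 0.787 and 10.2 in R342C and 3.89 and 2.16 in WT, so that the K365T libraries lay above those of WT in both media. These genes lay below the filter and were not tested.

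**Figure D3:**
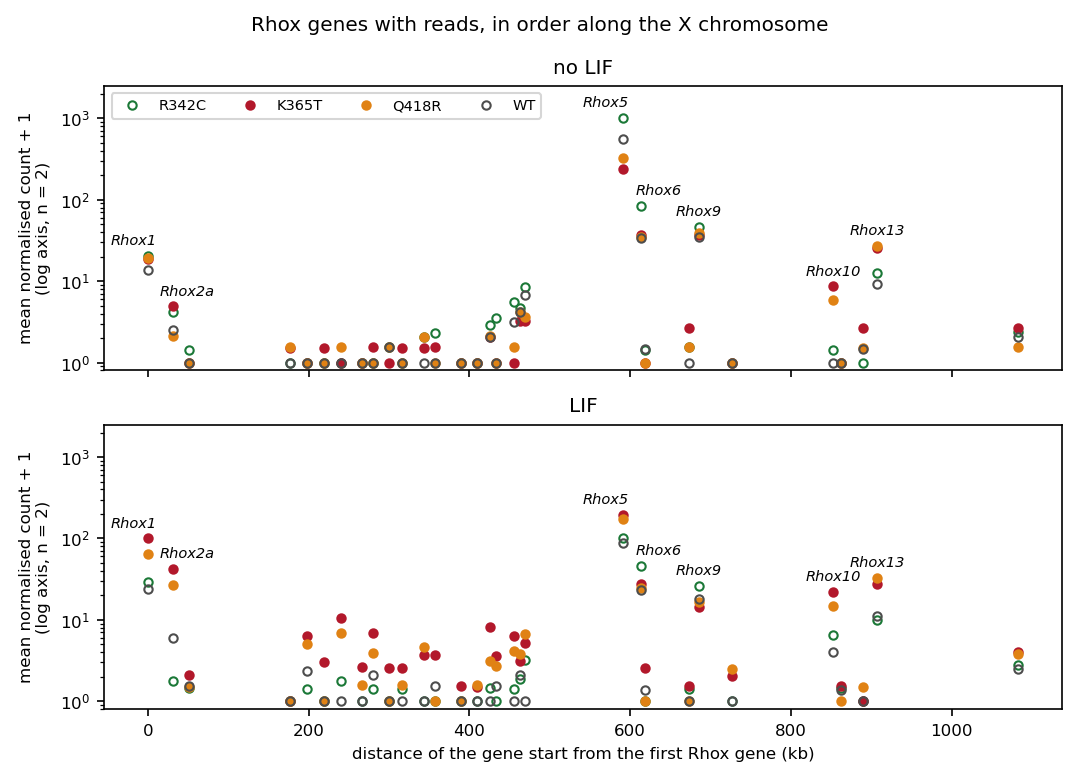
Mean normalised count plus 1 of each Rhox gene with reads (log axis, mean of 2 libraries) against the distance of its start from the start of the first Rhox gene in kb, without LIF above and in LIF below. In LIF the filled points of K365T and Q418R lie above the open points of R342C and WT at Rhox1, Rhox2a and many of the low genes, and without LIF the points of R342C and WT lie above those of K365T and Q418R at Rhox5.

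Rhox9 lay higher without LIF than in LIF in every line, at 1.81 times the level in R342C, 2.67 times in K365T, 2.44 times in Q418R and 2.04 times in WT. It had 43.9 and 47.8 normalised counts without LIF against 18.1 and 32.6 in LIF in R342C, 40.0 and 31.9 against 18.8 and 8.21 in K365T, 39.6 and 35.7 against 17.9 and 12.9 in Q418R, and 38.3 and 30.3 against 16.4 and 17.3 in WT. The 2 media did not overlap in any line. The rise passed in K365T (log2 difference 1.25 ± 0.35, limma, adjusted p = 0.00914) and Q418R (1.11 ± 0.35, 0.0173), and the differences of 0.81 ± 0.35 in R342C (0.072) and 0.87 ± 0.35 in WT (0.0521) missed the threshold. No difference in response between a mutant line and WT passed (adjusted p = 0.861 in K365T, 0.971 in Q418R and 1 in R342C), so that the calls in K365T and Q418R alone do not set these lines apart. The K365T call was lost without K365T no LIF replicate 1 (0.0564) or K365T LIF replicate 2 (0.125) and with the K365T libraries alone in the fit (0.0616), and the Q418R call without Q418R no LIF replicate 1 (0.079) or 2 (0.0519) or Q418R LIF replicate 2 (0.115). WT passed with edgeR (0.0486), upper-quartile scaling (0.0403) and a pseudocount of 16 (0.0404). R342C passed with a pseudocount of 16 (0.044) and without R342C LIF replicate 2 (0.0403). Between lines Rhox9 passed 0 of 12 comparisons with limma or edgeR (1 at an unadjusted limma p under 0.05) and 0 of the 11 to which DESeq2 gave an adjusted p, with differences from WT of -0.32 to 0.45 on the log2 scale.

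Rhox6 passed 0 of 19 comparisons with limma, edgeR or DESeq2, and 3 had an unadjusted limma p under 0.05, each of them between R342C and another line without LIF. Without LIF it had 63.7 and 104 normalised counts in R342C, 20.0 and 52.4 in K365T, 47.3 and 21.4 in Q418R and 40.2 and 24.7 in WT. In LIF it had 27.5 and 63.3 in R342C, 28.7 and 24.6 in K365T, 26.2 and 20.9 in Q418R and 24.1 and 20.5 in WT. R342C was highest in both media, without overlap with WT, but its replicates differed from each other by about as much as the lines did. The log2 difference of R342C from WT was 1.26 ± 0.48 without LIF (limma, adjusted p = 0.698, 95% interval 0.25 to 2.28) and 0.81 ± 0.48 in LIF (adjusted p = 1). The response to removal of LIF lay between 0.27 and 0.89 in the 4 lines, with adjusted p-values of 0.141 to 0.689. Without LIF the log2 differences of R342C from WT were 0.37 for Rhox2a, 0.89 for Rhox5, 1.26 for Rhox6 and 0.39 for Rhox9. None of them passed, and the median over all genes was 0.0069. That of Rhox2a rests on 5 and 2 reads in R342C against 2 and 1 in WT.

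**Figure D4:**
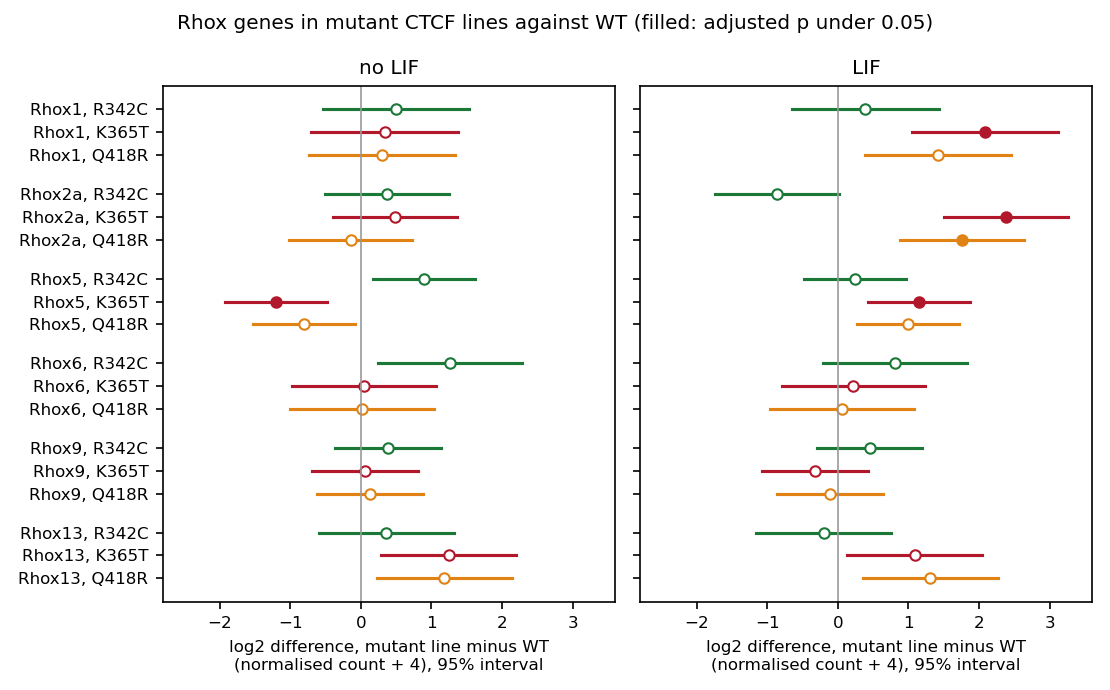
Log2 difference between each mutant line and WT on the normalised count plus 4, with the 95% interval from limma, without LIF on the left and in LIF on the right, for the 6 Rhox genes tested. Filled points passed at an adjusted p under 0.05. In LIF Rhox1, Rhox2a and Rhox5 are filled for K365T and Rhox2a for Q418R, and without LIF only Rhox5 in K365T is filled, at -1.20.

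Across all member and pair combinations of the mutant lines, 2 of 12 passed in LIF, both Rhox2a against R342C and so subject to the filter named above, and 2 of 12 passed without LIF, both Rhox5 against R342C. In LIF 6.08% of all genes passed between K365T and Q418R, 9.08% between K365T and R342C and 3.12% between Q418R and R342C, and without LIF the shares were 3.37%, 8.8% and 2.05%. K365T and Q418R differed in 0 of the 4 genes in either medium with limma or edgeR, and in 0 at an unadjusted limma p under 0.05. DESeq2 called none either, but gave Rhox2a no adjusted p in this pair. Rhox5 in K365T against R342C in LIF passed with DESeq2 alone (adjusted p = 0.0466). Rhox5 and Rhox2a did not run together over the 16 libraries (r = -0.16, or 0.49 with the mean of each medium taken off). These correlations describe libraries that share lines and media, and carry no test.

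Genes beside the cluster were also compared between each mutant line and WT. In LIF, limma called 0.417% of all genes in R342C, 11.1% in K365T and 4.25% in Q418R. Without LIF these shares were 0.479%, 14.7% and 6.15%. Of 12 neighbours listed, 9 were tested, and 0 passed in either medium by limma or edgeR, with 0 in R342C, 1 in K365T and 0 in Q418R at an unadjusted limma p under 0.05 in LIF, and 1 in R342C, 2 in K365T and 1 in Q418R without LIF. DESeq2 called 1 lower in K365T in LIF and 0 elsewhere. Of all 26 tested genes within 2 Mb of the cluster other than Rhox genes, limma called 1 higher and 1 lower in K365T and 1 lower in Q418R against WT in LIF, and 1 higher and 4 lower in K365T and 1 lower in Q418R without LIF, and 0 in R342C in either medium. In the response to the medium, those called included Lamp2, a lysosomal membrane protein (-0.90 ± 0.23 in WT, limma, adjusted p = 0.00426), and Nkap, a transcription regulator (-0.37 ± 0.11 in WT, 0.0109). Over the 580 X-linked genes tested, the median difference from WT in LIF was 0.01 for R342C, 0.01 for K365T and 0.04 for Q418R, and 8.62% were higher and 3.28% lower in K365T in LIF.

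Other germline genes of the X chromosome differed between lines as well. The genes named below as higher and those named as lower are different genes. Over all genes, limma called 0.417% in R342C, 11.1% in K365T and 4.25% in Q418R against WT in LIF. The shares without LIF were 0.479%, 14.7% and 6.15%. Of 16 X-linked germline genes tested, 0 were higher and 4 lower in R342C than in WT in LIF. There were 6 higher and 1 lower in K365T, and 2 higher and 0 lower in Q418R. Without LIF 0 were higher and 6 lower in R342C, 5 higher and 1 lower in K365T, and 3 higher and 0 lower in Q418R. Of the genes higher in K365T, 1 (Nxf2) passed the filter only through the group in which it was high, in each medium. Scml2, a Polycomb protein of male germ cells, was higher in K365T (log2 difference 3.21 ± 0.30, limma, adjusted p = 6.4e-05) and Q418R (1.23 ± 0.30, 0.0339) in LIF, as was Nxf3, an mRNA export factor (3.15 ± 0.25 and 1.72 ± 0.25). Usp26, a deubiquitinating enzyme of the testis, was higher in K365T (2.19 ± 0.35). Xlr5a (-3.87 ± 0.56, adjusted p = 0.00318), Xlr3c (-2.76 ± 0.37) and Xlr4b (-2.25 ± 0.36), of the X-linked lymphocyte-regulated family, which lies in near-identical copies whose reads may be split, were lower in R342C. The list median in LIF was -0.66 for R342C, 0.28 for K365T and 0.36 for Q418R, where the median of all genes lay between -0.02 and 0. Of 14 autosomal germline genes in LIF, 9 were higher and 0 lower in K365T (median 0.96), and 2 were higher and 0 lower in Q418R (median 0.73). In R342C 0 of them passed with limma or edgeR and 2 with DESeq2, 4 had an unadjusted limma p under 0.05, and the median was 0.14. Brdt, a testis bromodomain protein, was higher in K365T by 2.54 ± 0.31 on the log2 scale. Asz1, of the piRNA pathway of germ cells, is among the 9 but passed the filter only through the K365T libraries in LIF, with a mean of 3.69 normalised counts in the other 14.

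The enzymes that write and erase DNA methylation responded to the medium in all 4 lines, where 44.7% to 48.8% of all genes passed. Of the 8, 4 rose and 3 fell in R342C, 3 rose and 4 fell in K365T, 4 rose and 4 fell in Q418R, and 4 rose and 3 fell in WT. Dnmt3b, a de novo methyltransferase, rose in all 4 lines (3.99 ± 0.27 in K365T and 3.27 ± 0.27 in WT), and Tet2, which oxidises methylcytosine, fell (-3.70 ± 0.18 and -2.98 ± 0.18). Uhrf1, the partner of the maintenance methyltransferase Dnmt1, fell by 1.77 on the log2 scale in K365T and by 1.21 in WT. In the comparisons with WT in LIF, limma called 0.417% of all genes in R342C, 11.1% in K365T and 4.25% in Q418R. Without LIF the shares were 0.479%, 14.7% and 6.15%, and the counts below are read against them. Against WT in LIF, 1 of the 8 passed in K365T (Tet3, 0.42 ± 0.13) and 0 in R342C and Q418R, where the unadjusted limma p was under 0.05 for 1 and 2 of them, edgeR called 0 in both, and DESeq2 called 1 in R342C and 0 in Q418R. Without LIF, 3 were lower in K365T (Tet2, Tet1 and Uhrf1, at -0.82, -0.45 and -0.31), 1 in Q418R (Tet2, -0.63) and 0 in R342C, where edgeR and DESeq2 called 0 as well and 2 had an unadjusted limma p under 0.05. Of 11 repressors of germline gene promoters, the cofactor Atf7ip alone passed against WT, at -0.41 ± 0.11 in K365T and -0.40 ± 0.11 in Q418R in LIF. For Q418R in LIF edgeR called 0 of the 11 and DESeq2 called 1 lower. DNA methylation itself was not measured here, and the part of these enzymes in the Rhox levels was not tested.

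Markers of the tissues in which Rhox genes are known changed with the medium in both directions. In that response 44.7% to 48.8% of all genes passed, and the counts of markers below are read against this share. In bulk RNA, more cells of a type and more RNA per cell cannot be told apart. Of 12 trophectoderm and placenta markers 9 were tested, and their response to removal of LIF was 3 higher and 2 lower in R342C, 4 and 2 in K365T, 2 and 1 in Q418R and 5 and 3 in WT. Their summed level was 160 to 170 TPM without LIF against 148 to 174 TPM in LIF in R342C, 151 to 209.6 against 126 to 151 TPM in K365T, 135 to 170 against 113 to 126 TPM in Q418R, and 158 to 180 against 148 to 149 TPM in WT. Tpbpa, of the spongiotrophoblast, had 0 reads in all 8 LIF libraries and in 6 of the 8 without LIF, and Elf5, of trophoblast stem cells, reached 0.031 TPM at most. All 10 primitive endoderm markers were tested, with 5 higher and 2 lower in R342C, 4 and 2 in K365T, 7 and 2 in Q418R and 6 and 3 in WT. Their summed level was 272 to 279 TPM without LIF against 209 to 260 TPM in LIF in R342C, 181 to 253 against 193 to 207 TPM in K365T, 216 to 237 against 199 to 215 TPM in Q418R, and 234 to 277 against 204 to 213 TPM in WT. Primordial germ cell markers fell without LIF, with 6 of 9 lower and 2 higher in R342C, 7 lower and 1 higher in K365T, 5 lower and 1 higher in Q418R, and 6 lower and 2 higher in WT. This list shares Prdm14 and Dppa3 with the naive markers, Tfap2c with the trophectoderm markers, and Dazl and Ddx4 with the autosomal germline genes. Its counts thus repeat those of the other lists in part. Against WT in LIF, 2 of the 9 germ cell markers were higher in K365T, where 11.1% of all genes passed. They were Dnd1 (1.31 ± 0.24, limma, adjusted p = 0.00453) and Ddx4 (0.66 ± 0.20, 0.0489). In R342C and Q418R 0 passed with limma (0.417% and 4.25% of all genes), edgeR or DESeq2. The unadjusted limma p was under 0.05 there for 1 and 5 of the 9. Fibroblast markers rose without LIF in 5 or 6 of 6 tested, with a summed level of 69.8 to 161 TPM against 5.10 to 9.46 TPM in LIF. The part of any of these markers in the Rhox levels was not tested.

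Among 11798 other genes with a mean of at least 100, the profiles most like that of Rhox5 over the 16 libraries included those of Itpr1 (r = 0.93), which encodes a calcium channel, and Tarsl2 (0.90). With the mean of each medium taken off the 3 highest were Baz1a (0.84), Itpr1 (0.82) and Taf4b (0.81). For Rhox2a they were Mettl18 (0.93), Nek3 (0.89) and Cmtr2 (0.89), and with the medium mean taken off Wdr36 (0.93), Nlrp4c (0.93) and Mettl18 (0.91). For Rhox6 they were Sub1 (0.83), Apbb3 (0.81) and Plcxd2 (0.81), and then Plekha3 (0.86), Gm11868 (0.85) and Smarcc2 (0.84). For Rhox9 they included Nav2 (0.93) and Ap1m2 (0.93), and then Ptgr1 (0.83), Nav2 (0.82) and Ceacam1 (0.81). These are among the highest of many coefficients over libraries that share lines and media, and they describe likeness of profile in these libraries and no more.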

How the data were processed

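Total RNA of 16 samples (500 ng of each into a stranded kit with ribosomal RNA depletion, 150 bp paired reads, per the labels' protocols) gave 2 libraries for each of 8 groups. The submitters' processing notes name Trim Galore, STAR, DESeq2 and mm10, and the counter and annotation are not given in the sources used here. The deposited signal is the authors' normalised count, scaled by 1 factor per library. Its values were whole multiples of a step of 0.779 to 1.19 per read, so reads were recovered (tolerance 0.05). The authors' second deposited table holds TPM.

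Log2(normalised count + 4) of the 17757 genes with a mean of at least 10 was fitted with limma 3.58.1 (R 4.3.3, 8 group means, 8 residual degrees of freedom, eBayes with trend) and adjusted over all of them. The fit was tested on simulated data with the same relative spread beyond counting error for every gene. Changes were planted only in genes with a mean of at least 10 in WT in LIF. Rhox2a, with 4.95 there, was thus not covered, nor were genes whose libraries spread more. Adding 4 understates changes of low genes. Alternatives were edgeR 4.0.16 and DESeq2 1.42.0 on recovered reads, TPM, other pseudocounts, filters, scalings and samples, a replicate block, and each library left out. Exact intervals cover counting error only.

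The 4 genes and all gene lists were chosen with earlier results of these data known. Named are the 4 genes, the other Rhox genes, the 3 genes most like each (some are not reported here), and up to 4 passing members of each list by size. Groups follow the labels. Identical libraries were not found. Positions are from GENCODE M21 and promoters from RefSeq GRCm38.p6, which matched 28 of the 42 Rhox genes.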

Additional observations from a re-analysis of the deposited data

Results flagged for a closer look

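Rhox5 differed between K365T and WT in its response to the medium: the response in K365T minus that in WT was -2.36 ± 0.48 on the log2 scale (limma interaction, adjusted p = 0.0385), in a comparison in which 0.659% of all genes passed. The ratio of mean normalised counts without LIF to those in LIF was 1.21 in K365T and 6.27 in WT. Both K365T libraries lay above both WT libraries in LIF, and both lay below them without LIF. Over 20 alternatives the adjusted p was 0.000284 to 0.158, the call was kept in 11 of them, and the sign was negative in each. Without WT no LIF replicate 2 the adjusted p was 0.142. No other of the 4 genes passed such a test in any mutant line, the nearest being Rhox2a in K365T (-1.90 ± 0.58, adjusted p = 0.17). Groups of 2 libraries are too small for a test of single outlying libraries.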

How the results depend on the processing

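Of 1211 values of the 4 genes recomputed under alternatives, 1124 kept their direction and side of the threshold, 35 lost a call, 12 gained one and 40 changed sign, all of these in differences not called. All 238 recomputed values of the 15 called differences kept their sign, and 7 of the 15 were called in every alternative that gave an adjusted p. The number of the 4 genes called moved as follows. With only genes of a mean of at least 50, which leaves Rhox5 alone in the test, the responses of K365T and Q418R fell to 0 from 2, K365T against WT in LIF gave 1 (from 2), Q418R against WT in LIF 0 (from 1), and the pairs of mutants in LIF 0 (from 2). With DESeq2, K365T against WT in LIF gave 1, Q418R against WT in LIF 0, the Q418R interaction 1 (from 0) and the pairs in LIF 1 (from 2). DESeq2 gave Rhox2a no adjusted p in these comparisons, so that its calls there were not lost but not tested. With edgeR and with DESeq2 the Q418R response gave 3 (from 2). With edgeR, the WT response gave 2 (from 1) and Q418R against WT in LIF 0. With TPM, Q418R against WT in LIF, K365T against WT without LIF and the K365T interaction each gave 0 (from 1). A pseudocount of 16 gave 2 in the responses of R342C and WT, a pseudocount of 1 gave 0 for Q418R against WT in LIF, upper-quartile scaling gave 2 for the WT response, and centring on X-linked genes gave 0 for the K365T interaction. With only the libraries of the groups compared, the K365T response gave 1, K365T against WT without LIF 0, the K365T interaction 0 and the pairs without LIF 1. Leaving out 1 library at a time gave 1 to 2 for the responses of R342C, K365T and Q418R, 1 to 1 for that of WT, 1 to 2 for K365T against WT in LIF, 0 to 1 for Q418R against WT in LIF, K365T against WT without LIF and the K365T interaction, and 1 to 2 for the pairs in each medium. The causes were not tested beyond the smaller number of genes or libraries in these fits.

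Signs changed in 22 differences on the log2 scale, none of which passed. For Rhox6, leaving out 1 library at a time gave -0.35 to 0.88 for the response of K365T and -0.11 to 0.90 for that of Q418R, -0.077 to 0.20 for Q418R against WT in LIF, and without LIF -0.57 to 0.66 for K365T against WT, -0.49 to 0.53 for Q418R against WT and -0.59 to 0.65 for K365T against Q418R. The Rhox6 interactions ranged over -0.093 to 1.00 in R342C, -0.79 to 0.44 in K365T and -0.55 to 0.46 in Q418R. For Rhox9 the ranges were -0.77 to 0.13 for K365T against WT, -0.30 to 0.071 for Q418R against WT and -0.66 to 0.24 for K365T against Q418R in LIF. Without LIF they were -0.088 to 0.21, -0.025 to 0.28 and -0.21 to 0.083 for the same 3 pairs. The Rhox9 interactions ranged over -0.43 to 0.30 in R342C and -0.068 to 0.83 in K365T. For Rhox5 the ranges were -0.19 to 0.68 for R342C against WT in LIF, -0.10 to 0.42 for K365T against Q418R in LIF and -0.87 to 0.0845 for that pair without LIF. For Rhox2a without LIF they were -0.46 to 0.17 for Q418R against WT and -0.22 to 0.44 for K365T against R342C. Centring on X-linked genes turned Rhox6 in Q418R against WT without LIF to -0.065 and Rhox9 in K365T against Q418R without LIF to 0.077. The Rhox6 interaction of Q418R became 0.0105 with DESeq2 and 0.059 with TPM, and the summed Rhox2 copies gave -0.50 for K365T against R342C without LIF.

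The replicate numbers did not pair the libraries: the correlation of same-numbered libraries' deviations over 28 pairs of groups was -0.52 to 0.54, with a median of 0.07. The replicate block gave 0 for the K365T interaction (adjusted p = 0.0515 for Rhox5) and moved no other count. The Rhox2 copies summed in place of Rhox2a, an alternative chosen after seeing the data, moved no count. TPM shifted the median of all genes in K365T against WT in LIF to 0.11, against -0.02, and the share of higher calls to 78.4%, against 57.9%. The few reads of Rhox2a limit what could be detected below about 8 normalised counts. DESeq2 called 8 X-linked germline genes lower in R342C than in WT in LIF, against 4 with limma, and 2 methylation enzymes higher in K365T than in WT in LIF, against 1.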
